A study of Rattus norvegicus with 8 samples.

Results

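U6 small nuclear RNA was followed in the RNA of plasma exosomes, small vesicles released by cells into the blood. The U6 copies were the rows of the expression table whose name is U6 or starts with Rnu6, apart from Rnu6atac, and that held a value above 0 in at least 1 library. There were 19 such copies among 104 rows named as U6 and 29541 rows in all. There were 4 libraries from exercised and 4 from sedentary male Sprague Dawley rats, labelled a to d in each group, and the rats were obtained at 9 to 10 weeks of age. Exercise was treadmill running for 1 month, 5 days a week, each session being 5 min of warm-up (10 m/min) followed by 30 min at 20 m/min. Blood of exercised rats was taken no later than 30 min after their final session. Sedentary rats stayed in the room without running. No rat of either group in this exosome cohort received alpha-synuclein fibrils. Vesicles were precipitated from 1.5 mL of plasma cleared of cells, and 1 ng of their RNA was made into a stranded total RNA library without fragmentation, with 10 PCR cycles and removal of ribosomal cDNA. The study's text gives differing numbers of rats per group, and whether a library came from 1 rat or from a pool is not stated in the labels. The libraries are therefore the replicates here, and p-values measure the spread between libraries only.

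U6 is the RNA at the catalytic core of the spliceosome, the machine that removes introns from pre-mRNA. It enters the spliceosome paired with U4 RNA, lets go of U4 and then pairs with U2 RNA and the 5' splice site. Unlike the other major spliceosomal RNAs it is made by RNA polymerase III and keeps a tail of uridines that is bound by the La protein and then by a ring of LSM proteins. Mammalian genomes hold a few active U6 genes and a large number of near-identical copies and decayed pseudogenes. U6 is also widely used as a reference RNA in measurements of small RNAs, including those of plasma vesicles.

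Because the copies are so alike, a short read of U6 can match several of them, and how the study shared such reads out is not given in the sources consulted. The values of single copies are therefore uncertain, and their sum leaves out any U6 reads that lie on rows without a U6 name. All values are TPM, transcripts per 1000000, in which the reads of a gene are divided by its length and each library is brought to the same total. Every U6 value above 0 (61 of 61) was a whole multiple of what 1 read was worth in its library, at a tolerance of 0.001 reads. The worth of 1 read was set as the lowest value above 0 of a 107 nt copy in each library. Reads split in equal parts would pass this check too. By this measure 290 reads fell on U6 copies in all, 186 of them in exercised and 104 in sedentary libraries. Reads derived for all genes, which may be too low for some of them, came to 10020804 to 22094584 per exercised and 17694853 to 31357153 per sedentary library. Only 64776 to 138860 and 76357 to 139868 of these lay outside the 10 most abundant RNAs. A single U6 read of a copy of 107 nt was worth 0.643 to 1.42 TPM in exercised and 0.426 to 0.720 TPM in sedentary libraries, so levels under about 2 TPM rest on 1 to 4 reads.

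A small number of copies held most of the reads. Rnu6-698 alone had 105 of the 290 reads (36.2%), the first 3 copies had 214 (73.8%) and the first 5 had 249 (85.9%). The other 14 copies shared 41 reads (14.1%), and 6 copies had a single read. Only Rnu6-698, Rnu6-180 and Rnu6-826 were above 0 in all 8 libraries, and 8 copies were above 0 in 1 library. Of the 19 copies, 11 were found in both groups, 4 in exercised libraries alone and 4 in sedentary libraries alone, each of the last 8 with 1 to 6 reads. The rule that chose the copies needed no more than 1 read, so at its edge stood copies such as Rnu6-632 at 0.414 TPM in sedentary c, next to 85 rows at 0 in every library. For a copy of 107 nt, 0 reads allow up to 3 reads, which are 1.93 to 4.25 TPM in an exercised and 1.28 to 2.16 TPM in a sedentary library.

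**Figure D1:**
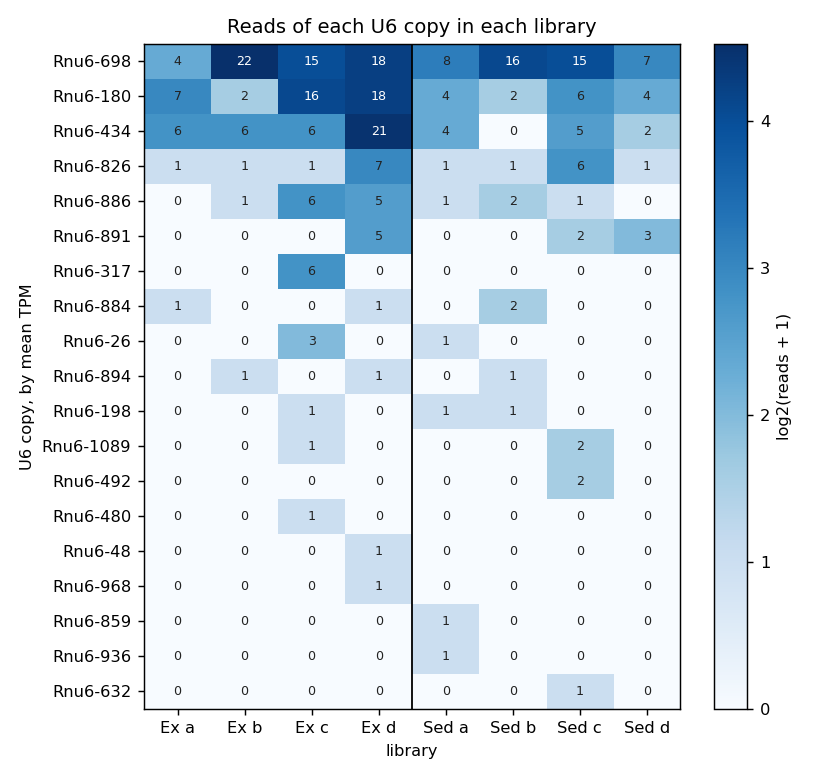
Reads of each of the 19 U6 copies (rows, ordered by mean TPM) in each library (columns, exercised left of the line and sedentary right of it), with the number of reads printed and the shade on a log2(reads + 1) scale. Most reads sit in the top 3 rows, and below the first 5 copies most cells are at 0.

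What RefSeq (assembly GRCr8, used for names, types, lengths and positions) records of these rows was compared with their reads. It matched 103 of the 104 rows by name, and the unmatched row, named U6, was at 0. Of the 19 copies above 0, 16 were annotated as small nuclear RNA genes and 3 as pseudogenes, against 70 and 14 of the 84 matched rows at 0. A length of 107 nt was annotated for 11 of the 19 copies above 0 (57.9%) and for 35 of the 84 at 0 (41.7%). The 11 small nuclear RNA copies of 107 nt took 217 of the 290 reads (74.8%), the 5 of another length took 10 (3.45%), and the 3 pseudogenes took 63 (21.7%), of which 59 were on Rnu6-180. A row annotated as a pseudogene was thus second in rank. Pseudogene TPM summed to 9.70 ± 5.26 in exercised and 2.48 ± 0.219 in sedentary rats (SD, n = 4 libraries each), and the copies of 107 nt summed to 25.2 ± 10.7 in exercised and 10.4 ± 4.01 in sedentary rats. The copies of other lengths were level at 0.883 ± 0.679 TPM in exercised and 0.885 ± 0.947 TPM in sedentary rats.

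Some copies lie inside other genes, whose own RNA can be read from the same place. In GRCr8, 6 of the 19 copies lie within the span of a protein-coding gene, against 39 of the 103 matched rows (37.9%). Rnu6-180 lies within Ankrd31, which was at 0 TPM in all 8 libraries. The hosts of the other 5 copies were low. Sestd1 around Rnu6-480 and Khdc4 around Rnu6-632 did not pass 0.0333 and 0.0342 TPM. Zfand6 around Rnu6-891 did not pass 0.0402 TPM, Btbd10 around Rnu6-26 did not pass 0.0261 TPM, and Tdo2, the liver enzyme of tryptophan breakdown around Rnu6-492, reached 1.18 TPM in exercised b and 1.63 TPM in sedentary d. No protein-coding gene overlapped Rnu6-698, Rnu6-434, Rnu6-826 or Rnu6-886, though Rnu6-886 overlaps the pseudogene Pias2-ps1.

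The first comparison asked whether U6 RNA, summed over its named copies, differed between exercised and sedentary rats. Summed over the 19 copies it was 27.7, 21.4, 39.4 and 54.6 TPM in exercised a to d, against 10.5, 18.2, 17.2 and 9.11 TPM in sedentary a to d. All 4 exercised libraries lay above all 4 sedentary ones, with exercised d highest and sedentary d lowest. The means were 35.8 ± 14.6 TPM in exercised and 13.8 ± 4.62 TPM in sedentary rats (SD, n = 4 libraries each), a ratio of 2.60 and a log2 ratio of 1.38. As a sum over chosen rows it is given without a test. U6 took 0.00214 to 0.00546% of the TPM of exercised and 0.000911 to 0.00182% of that of sedentary libraries.

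**Figure D2:**
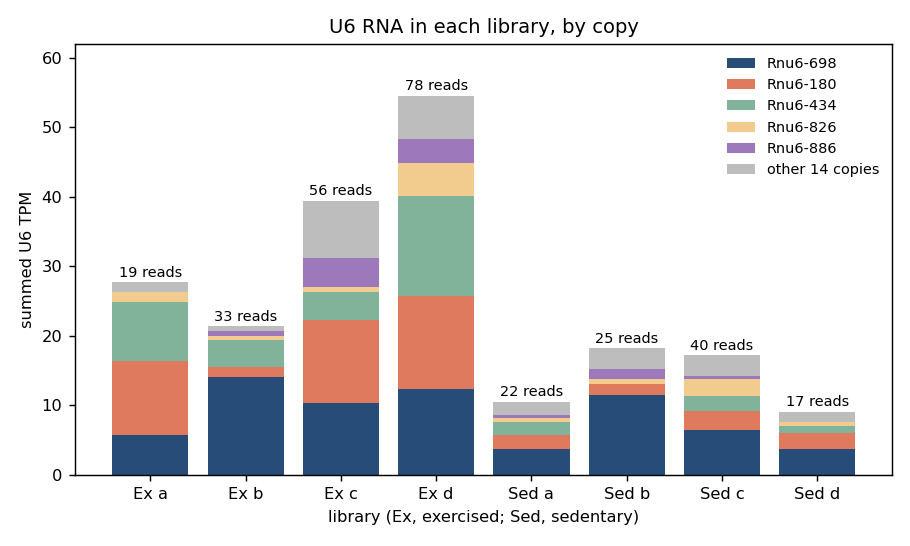
Summed U6 TPM in each library, split by copy, with the number of U6 reads above each bar (Ex, exercised; Sed, sedentary). The 4 exercised bars reach 21.4 to 54.6 TPM and the 4 sedentary bars 9.11 to 18.2 TPM, while the reads behind them overlap at 19 to 78 and 17 to 40.

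The separation depended on what U6 was measured against. The 10 most abundant RNAs held 98.1 to 98.7% of the TPM of exercised and 98.6 to 99.2% of that of sedentary libraries, so what was left for all other RNAs differed between libraries. Counted per 1000000 derived reads outside those 10 RNAs, U6 was at 293, 238, 543 and 905 reads in exercised a to d and at 212, 327, 410 and 122 reads in sedentary a to d. On this scale the groups overlapped, since sedentary b and c lay above exercised a and b. Rescaling TPM without the 10 RNAs took the log2 ratio of the sum to 0.75, and size factors from the median ratio over genes took it to 1.04, with overlapping groups under both. Over all 508 genes tested below, the median log2 fold change was 0.40 on TPM as deposited, 0.19 under median-ratio scaling and -0.0088 under the rescaling, so the bulk of the genes moved with the scaling in the same direction as U6. The exercised mean of U6 stayed above the sedentary mean under all of these scalings.

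**Figure D3:**
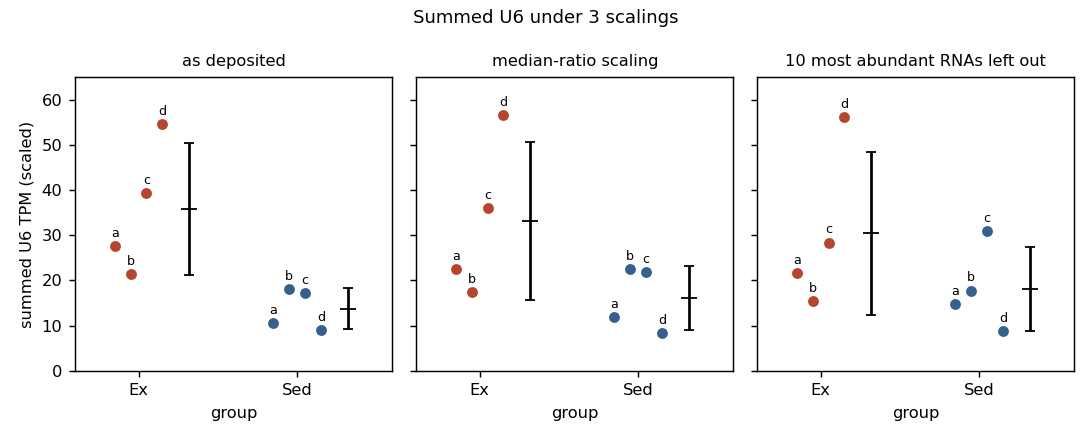
Summed U6 in each library (points, with the letter of the library) and the mean ± SD of each group of 4 (black) under 3 scalings, all in TPM after scaling. The groups are apart as deposited, and under median-ratio scaling and with the 10 most abundant RNAs left out the exercised range of 15.4 to 56.5 meets the sedentary range of 8.27 to 30.9.

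Summed levels of cell type and exosome marker mRNAs were set beside summed U6, and they did not rank the libraries as U6 did. Platelet markers (7 genes, Gp1bb at 0 in every library) summed to 6.22 to 12.9 TPM in exercised and 0.822 to 3.21 TPM in sedentary libraries, which did not overlap. This sum was mostly Pf4, a chemokine of platelet granules, at 3.31 to 12.1 TPM in exercised and 0.679 to 2.03 TPM in sedentary libraries, and the other members were at 0 in every library or overlapped between the groups. Leukocyte markers (8 genes) summed to 56.9 and 82.4 TPM in exercised c and d, the libraries highest in U6, to 0.0648 and 0.225 TPM in exercised a and b, and to 0.697 to 6.58 TPM in sedentary libraries. Nearly all of the exercised c and d values came from the neutrophil defensins RatNP-3b (49.6 and 47.9 TPM) and Np4 (6.95 and 31.9 TPM). S100a9 (0.218 and 1.41 TPM in exercised c and d) and S100a8 (1.03 TPM in exercised d) were also highest there. Ptprc was higher in exercised (0.0262 to 0.0997 TPM) than in sedentary libraries (0 to 0.0120 TPM), without following the defensins. Lyz2 was highest in sedentary b (0.597 TPM), and Cd3e and Cd79a did not pass 0.0231 and 0.0771 TPM. Erythroid markers overlapped between the groups (30.3 to 135 TPM in exercised, 10.9 to 75.6 TPM in sedentary). The exosome marker sum did as well (3.49 to 18.3 TPM in exercised, 1.48 to 13 TPM in sedentary). It was mostly Hsp90ab1, at a mean of 5.94 TPM, and no other member passed a mean of 0.203 TPM. Among those low members only Sdcbp had groups apart, at 0.221 to 0.608 TPM in exercised and 0 to 0.0564 TPM in sedentary libraries. Like Ptprc, it was too low to be tested. Of all 14356 genes above 0 in at least 2 libraries, 190 had groups apart with exercised higher. Hepatocyte markers (8 genes) overlapped too, at 0.471 to 52.9 TPM in exercised and 13.6 to 78.0 TPM in sedentary libraries, but were at 1.56 and 0.471 TPM in exercised c and d, below every sedentary library. Alb (0.0580 to 2.13 TPM in exercised, 1.74 to 10.1 TPM in sedentary) and Serpina1 passed the filter for testing only through sedentary libraries, so their tests are left out. By limma Hpx and Gc were lower in exercised libraries (unadjusted p = 0.0321 and 0.0400), against 2.17% of all genes tested at an unadjusted p under 0.05. Ttr was not (unadjusted p = 0.172), and 0 passed adjustment. The part of these cells in the U6 difference was not tested. Without exercised c and d, summed U6 averaged 24.5 TPM in exercised and 13.8 TPM in sedentary libraries, a log2 ratio of 0.83. In RNA from plasma vesicles, fewer source cells or vesicles and less RNA in each cannot be told apart.

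Part of the sum followed Rnu6-698, the copy of highest mean level. It stood at 5.66, 14.1, 10.3 and 12.3 TPM in exercised a to d and at 3.75, 11.5, 6.39 and 3.68 TPM in sedentary a to d. Exercised a was below sedentary b and c, so the groups overlapped. The means were 10.6 ± 3.66 TPM in exercised and 6.34 ± 3.68 TPM in sedentary rats, a ratio of 1.68. Its log2 fold change by limma on log2(TPM + 1) was 0.72 (SE 0.465, adjusted p = 0.578), and a two-sided exact permutation test over the 70 assignments of libraries gave p = 0.143. The other 18 copies together were at 22.1, 7.24, 29.1 and 42.2 TPM in exercised a to d and at 6.77, 6.68, 10.8 and 5.43 TPM in sedentary a to d, with exercised b under sedentary c. Their ratio of means was 3.39.

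The share of U6 in this leading copy showed how evenly reads were spread. Rnu6-698 held 20.4, 66.2, 26.2 and 22.6% of U6 TPM in exercised a to d, against 35.7, 63.3, 37.1 and 40.4% in sedentary a to d. Library b had the largest share in both groups, and the other 3 exercised libraries had smaller shares than any sedentary one. By reads, the exact 95% binomial interval of the share was 48.2 to 82.0% in exercised b and 14.3 to 34.0% in exercised d, against 42.5 to 82.0% in sedentary b and 17.2 to 59.3% in sedentary a. These intervals cover counting error only, and those of most libraries overlap widely. Rnu6-180 was the highest copy in exercised a and c, Rnu6-434 in exercised d, and Rnu6-698 in exercised b and in all 4 sedentary libraries.

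The groups overlapped in the number of copies over which their reads were spread. There were 5, 6, 10 and 10 copies above 0 in exercised a to d and 9, 7, 9 and 5 in sedentary a to d. Brought to 17 reads each, the number in the library with fewest U6 reads, the expected numbers of copies were 4.79, 4.31, 6.58 and 6.13 in exercised and 7.63, 5.76, 6.77 and 5 in sedentary libraries. The inverse Simpson number, the count of equally used copies that would give the same concentration, averaged 3.93 ± 1.45 in exercised and 3.90 ± 1.16 in sedentary rats. It was lowest at 2.09 in exercised b and 2.35 in sedentary b, the 2 libraries led most strongly by Rnu6-698.

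The second comparison took the copies one by one. With a minimum mean of 1 TPM over all libraries, 5 of the 19 copies entered the limma fit over 508 genes. Rnu6-886 passed this filter only through its exercised libraries, so its difference is given below as values without a test. By limma at an unadjusted p under 0.05, 2 of the 5 were higher in exercised rats, against 8.46% of all genes tested, and none was lower. After Benjamini-Hochberg adjustment in limma 0 of the 5 passed, and neither did any other gene (0% of the 508, with 54 at an unadjusted p under 0.05). In 1 of the 5 copies the groups did not overlap, with exercised higher, against 5.31% of all genes tested. With 5 copies these counts are too small to set the U6 copies apart from the other genes.

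Rnu6-434 was the copy whose groups were apart. It had 8.49, 3.86, 4.13 and 14.4 TPM in exercised a to d, against 1.88, 0, 2.13 and 1.05 TPM in sedentary a to d. The lowest exercised library, b, lay above the highest sedentary library, c, and exercised d held 46.6% of the exercised TPM. Behind these levels were 6, 6, 6 and 21 reads in exercised and 4, 0, 5 and 2 reads in sedentary libraries. The means were 7.72 ± 4.94 TPM in exercised and 1.26 ± 0.960 TPM in sedentary rats, a ratio of 6.11 that ran between 4.34 and 7.91 with 1 library left out. Corrected for what 1 read was worth, the ratio of reads was 5.32, with an exact 95% interval, for counting error alone, of 2.67 to 11.5. Its log2 fold change was 1.91 (SE 0.525) with an unadjusted p of 0.00526 and an adjusted p of 0.312 by limma. The exact permutation p was 0.029, the smallest that 4 against 4 libraries allow. Groups that do not overlap always give this value, so it adds nothing to the separation. On TPM rescaled without the 10 most abundant RNAs its groups overlapped.

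Rnu6-180, the pseudogene row inside Ankrd31, differed by 7.18 TPM in the mean, against 6.46 TPM for Rnu6-434, but not in every library. It stood at 10.7, 1.39, 11.9 and 13.3 TPM in exercised a to d and at 2.03, 1.56, 2.76 and 2.27 TPM in sedentary a to d. Exercised a, c and d were each more than 3 times the highest sedentary library, and exercised b, with 2 reads, was below all of them. The means were 9.33 ± 5.40 TPM in exercised and 2.15 ± 0.502 TPM in sedentary rats, a ratio of 4.33. The log2 fold change was 1.44 (SE 0.584) with an unadjusted p of 0.0351 and an adjusted p of 0.403 by limma, and the exact permutation test gave p = 0.143. This call rested on the choice of libraries and settings, since the unadjusted p of limma was under 0.05 in 3 of 18 alternatives. Without exercised b the log2 fold change was 2.05 with an unadjusted p of 0.000439 and an adjusted p of 0.216, and without exercised c and d it was 0.76 with an unadjusted p of 0.271.

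**Figure D4:**
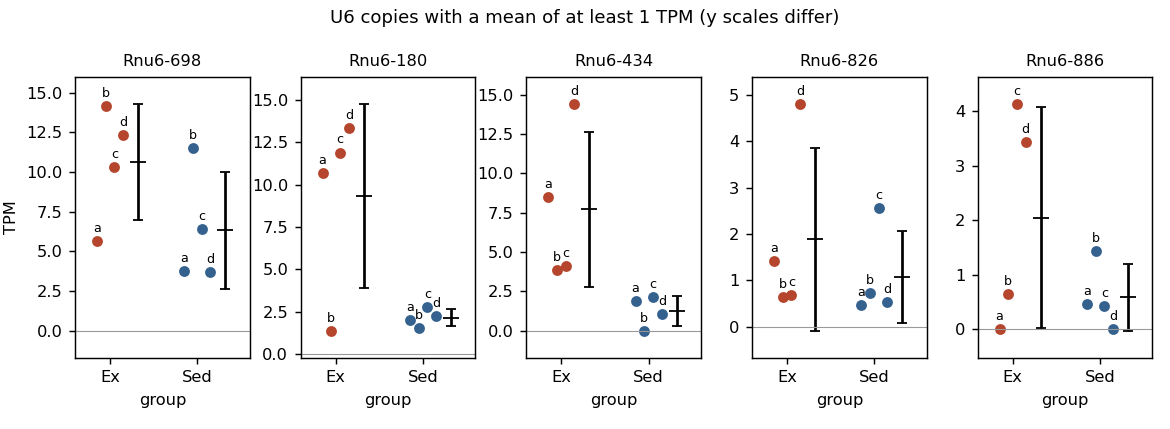
TPM of the 5 U6 copies with a mean of at least 1 TPM in each library (points, with the letter of the library) and the mean ± SD of each group of 4 (black; Ex, exercised; Sed, sedentary), each panel on its own linear scale. Only for Rnu6-434 do all 4 exercised libraries lie above all 4 sedentary ones, and for Rnu6-180 exercised b lies below them.

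The remaining tested copies had low levels that turned on single libraries. Rnu6-826 was at 1.42, 0.643, 0.688 and 4.80 TPM in exercised a to d and at 0.469, 0.720, 2.55 and 0.526 TPM in sedentary a to d. Exercised d had 7 of its reads and sedentary c had 6, and the other 6 libraries had 1 each. Its log2 fold change of 0.38 (adjusted p = 0.778 by limma, exact permutation p = 0.514) became -0.030 without exercised d. Rnu6-886 was at 0, 0.643, 4.13 and 3.43 TPM in exercised a to d and at 0.469, 1.44, 0.426 and 0 TPM in sedentary a to d. Exercised c and d held 11 of its 16 reads. The ratio of its means, 3.51 over all libraries, was 6.87 without sedentary b and 0.551 without exercised c and d.

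The 14 copies under the filter had 23 reads in exercised and 18 in sedentary libraries and summed to means of 4.16 TPM in exercised and 2.36 TPM in sedentary rats. Rnu6-317 had 6 reads in exercised c, at 4.13 TPM, and was at 0 in the other 7 libraries. Rnu6-891 had 5 reads in exercised d against 2 in sedentary c and 3 in sedentary d. These are the 2 copies with the most reads below the filter, and the whole of their exercised reads came from 1 library each. Rnu6-26 had 3 reads in exercised c and 1 in sedentary a, and Rnu6-884 had 1 in each of exercised a and d and 2 in sedentary b. Rnu6-894, Rnu6-198 and Rnu6-1089 had 3 reads each, spread over both groups. None of the 14 entered the fit at this filter. When a gene needed only a value above 0 in 2 libraries, 6 of them did, with adjusted p by limma of 0.904 to 0.995.

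U6 was then set beside the other spliceosomal RNAs, its partners in the spliceosome. Rows named as U1, U2, U4 or U5 held nearly only U1, the RNA that recognises the 5' splice site first. U2 stood at 0.929 TPM in exercised d alone, U4 at 1.64 TPM in sedentary b alone and U5 at 0.433 TPM in sedentary a alone. Rnu6atac, the counterpart of U6 in the minor spliceosome, was at 0 in all 8 libraries. Under these names U4 and U2, with which U6 pairs, were thus all but absent. U1 summed to 179, 320, 649 and 260 TPM in exercised a to d and to 90.5, 198, 65.6 and 545 TPM in sedentary a to d, which overlapped. None of the 5 tested U1 copies passed an unadjusted p of 0.05 by limma in either direction, and their median log2 fold change was 0.54.

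The libraries did not rank alike in U6 and U1. Exercised d was highest in U6, and in U1 it was below exercised b and c, and sedentary d was lowest in U6 and highest of the sedentary libraries in U1. As a percent of the summed TPM of the other major spliceosomal RNAs, U6 was at 15.5, 6.67, 6.07 and 20.9 in exercised a to d and at 11.6, 9.12, 26.3 and 1.67 in sedentary a to d. The means of 12.3 ± 7.2 in exercised and 12.2 ± 10.3 in sedentary rats were close, but single libraries moved their log2 ratio of 0.017 to 0.72 without sedentary c, -0.35 without sedentary d and -0.37 without exercised d. A further 855 rows with LOC names are annotated as small nuclear RNA genes in RefSeq, of which 188 were above 0. They summed to 3926 to 11212 TPM in exercised and 1303 to 6574 TPM in sedentary libraries, far above U6, and by limma at an unadjusted p under 0.05 the exercised level was higher for 3 of their 69 tested rows, against 8.46% of all genes tested, and lower for 0. Their median log2 fold change was 0.68. Which spliceosomal RNA each LOC row belongs to is not known here.

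**Figure D5:**
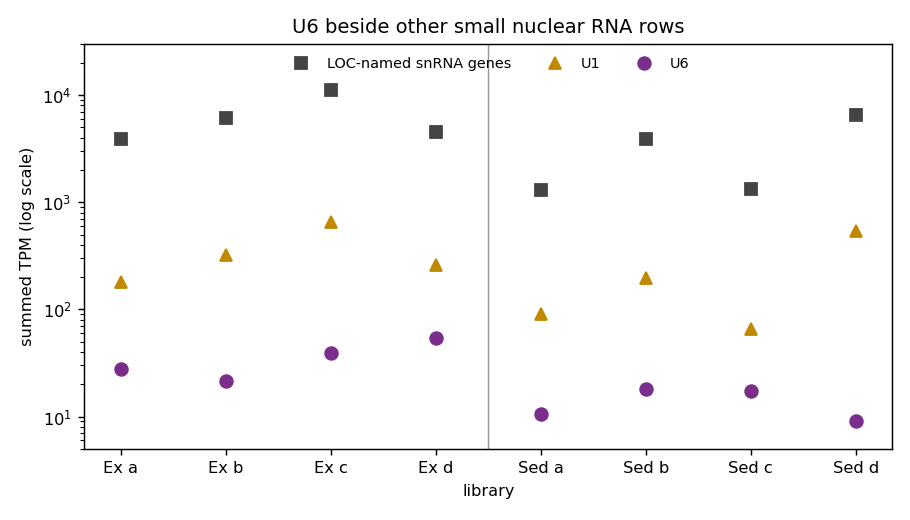
Summed TPM (log scale) of U6 copies, rows named U1 and LOC-named small nuclear RNA genes in each library, exercised left of the line and sedentary right of it. U6 is lowest throughout, and its order over the libraries is not that of U1, since sedentary d has the lowest U6 and 545 TPM of U1.

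The mRNAs of proteins that make, trim and bind U6 were barely present. Of 18 genes for proteins of the U6 particle and of the U4/U6.U5 complex, 17 were in the table and 16 above 0, with Ppih at 0. None reached a mean of 1 TPM, so 0 were tested. The highest was Lsm4, a protein of the LSM ring, at a mean of 0.341 TPM, nearly all of it from 2.56 TPM in exercised b. Snrnp200, the helicase that unwinds U4 from U6, averaged 0.196 TPM, and Prpf6, a scaffold of the U4/U6.U5 complex, averaged 0.141 TPM. All 6 genes for factors that act on the ends or bases of U6 were above 0 and 0 were tested, led by Larp7, which binds U6 and 7SK RNA, at 0.156 TPM and by Tut1, which adds its uridine tail, at 0.114 TPM. All 19 genes found for the RNA polymerase III machinery that transcribes U6 were above 0 and 0 were tested, the highest being the polymerase subunit Polr3c at 0.104 TPM. Summed levels of the particle's mRNAs were 0.593 to 3.33 TPM in exercised and 0.436 to 1.57 TPM in sedentary libraries, which overlapped.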

How the data were processed

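The authors deposited 1 table of TPM for 29541 genes in 8 libraries, each column of which sums to 1000000. The rat build was mRatBN7.2 by the processing notes of the submitters. Not given in the sources used here are the aligner, the counter, the annotation, the treatment of reads that match several copies and any removal of PCR duplicates.

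All further values were computed from these TPM. The value of 1 read in a library was set on U6 copies of 107 nt by their RefSeq (GRCr8) lengths. Reads were the smallest whole numbers that gave each gene's TPM (71860 of 71860 values whole at a relative tolerance of 1e-06). Divisors up to 200000 were tried, so this check could hardly fail for genes above 0 in few libraries. True reads could be a common multiple of these, or a common fraction if reads matching several copies were split. Totals of reads outside U6 are thus approximate. The 508 genes averaging 1 TPM or more were compared with limma 3.58.1 in R 4.3.3 on log2(TPM + 1), which understates changes of low genes (no covariates, eBayes with trend, Benjamini-Hochberg adjustment). The limma step was tested on simulated counts with planted changes. The simulation did not bring each library to a fixed total as TPM do, so it does not bear on the scaling. Single copies also had two-sided exact permutation tests (scipy 1.17.1). Binomial intervals are exact (Clopper-Pearson, 95%) and need independent reads. Lists were U6 particle proteins, U6 end and base factors, RNA polymerase III factors, nuclear-retained RNAs (0 of 4 symbols were names in the table), and exosome, erythroid, platelet, hepatocyte and leukocyte markers.

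The U6 copies, the lists and the tests were chosen with earlier results of these data known. Named copies were the 12 of highest mean TPM, any tested copy at an unadjusted p under 0.05 or with groups apart, and Rnu6-180 and Rnu6-434. Rnu6-632, Rnu6-492, Rnu6-480 and the split by RefSeq type were chosen after values were seen. In each list up to 3 members of highest mean were taken. Alternatives were another pseudocount (0.1 or 5 TPM), filter (above 0 in 2 libraries, or a mean of 5 TPM), scaling, voom on derived reads, a replicate block, and libraries left out. The labels' letters a to d were not treated as pairs.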

Additional observations from a re-analysis of the deposited data

Results flagged for a closer look

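Among 22 groups of 4 libraries examined (11 measures of U6 in each group), 2 held a library far from the other 3 by Dixon's criterion, where chance gives about 1 in 20. Rnu6-826 stood at 2.55 TPM in sedentary c, against 0.469 to 0.720 TPM in the other sedentary libraries, on 6 reads against 1 each. Rnu6-698 held 66.2% of U6 TPM in exercised b, against 20.4 to 26.2% in the other exercised libraries.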

How the results depend on the processing

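The log2 ratio of summed U6, 1.38, was 0.75 on TPM rescaled without the 10 most abundant RNAs, lay between 1.10 and 1.56 with 1 library left out, and was 1.65 without sedentary b and exercised a, the libraries inferred to be left out of the study's own table of RNAs. The 2 copies at an unadjusted p under 0.05 by limma became 1 with a pseudocount of 0.1 TPM, without the filter on means, under either rescaling and without exercised c and d (added after seeing the data), 0 with voom on derived reads and with a mean of at least 5 TPM, and 1 to 2 with 1 library left out. Without sedentary b and exercised a they were 3 in number but not the same ones: Rnu6-180 was lost, Rnu6-434 stayed, and Rnu6-698 and Rnu6-886 were gained, the last a copy that passed the filter only through exercised libraries. Of all genes tested, 44 of 491 were then higher at an unadjusted p under 0.05 by limma, against 43 of 508 as deposited. That count was 43 of 508 with a pseudocount of 0.1 TPM, 246 of 14356 without the filter and 21 of 508 with voom. It was 19 of 174 with a mean of at least 5 TPM, and 29 of 520 to 55 of 510 with 1 library left out. Under rescaling it was 16 of 508, and under median-ratio scaling 25 of 508. Without exercised c and d it was 93 of 483, with 4 U6 copies tested. The 1 copy whose groups did not overlap became 0 under rescaling and with a mean of at least 5 TPM, and 1 to 2 with 1 library left out. Without sedentary b and exercised a there were 3 such copies, Rnu6-886 among them. Over all genes tested, groups were apart with exercised higher in 27 of 508 as deposited and 7 of 508 under rescaling. The count was 14 of 174 with a mean of at least 5 TPM. It was 31 of 530 to 56 of 522 with 1 library left out, and 67 of 491 without sedentary b and exercised a. The causes were not tested, other than that a mean of 5 TPM leaves 2 copies.

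No copy passed the adjusted threshold of limma under any of 18 alternatives. By limma the unadjusted p of Rnu6-434 was under 0.05 in 16 of 17 alternatives, with an adjusted p by limma of 0.153 to 0.851. With voom in limma it was 0.0677 (adjusted p = 0.638). Without sedentary c the sedentary mean of Rnu6-434 was 0.976 TPM, so there it passed the filter only through exercised libraries. The log2 fold change of Rnu6-826, 0.38, lay between -0.030 (without exercised d) and 0.67 (without sedentary c) with 1 library left out. In both of these fits it passed the filter through 1 group only. Its exercised mean was 0.915 TPM without exercised d, and its sedentary mean was 0.572 TPM without sedentary c. Over all genes, calls split 43 higher to 11 lower as deposited, 16 to 23 under rescaling and 25 to 14 under median-ratio scaling. Same-letter libraries did not deviate together (correlations of -0.26 to -0.0049). With a replicate block 2 copies were still at an unadjusted p under 0.05 by limma, against 34 of 508 genes tested that were higher. The mean log2 ratio of summed U6 was then 1.35. With 17 to 78 U6 reads per library, depth limits every copy under the first 3. It also limits Rnu6-180 and Rnu6-434, which had 2 to 6 and 0 to 5 reads in the sedentary libraries.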
